A study of Homo sapiens with 6 samples.

Results

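Genes that take glucose into the cell and carry it through glycolysis were read in HepG2 cells after sorafenib, by every array probe that carries their symbol. They were the hexokinases HK1 and HK2, the glucose transporters SLC2A1, SLC2A2 and SLC2A3, the phosphofructokinase PFKP, its regulators PFKFB3 and PFKFB4, the pyruvate kinase PKM and the lactate dehydrogenase LDHA. These 10 of the 20046 genes named on the array had 20 of its 47323 probes, of which 16 passed the filter, as 20120 of all probes did. To pass, a probe needed a detection p below 0.05 on 3 or more arrays out of 6. HepG2 is an established human liver tumour line labelled as hepatocellular carcinoma, and sorafenib is an oral inhibitor of RAF and receptor tyrosine kinases used against that tumour. The cells were kept for 24 h with DMSO, the solvent, alone (3 arrays) or with sorafenib (3 arrays), at a dose that the labels give as 3 mM. Doses of this drug on cultured cells are usually micromolar, and the dose cannot be checked from the intensities. All 6 arrays hold RNA of this 1 line, and the labels number the arrays of each group 1 to 3 without saying that a number is a separate culture, so each p-value is set against array-to-array spread, which may be technical only.

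Hexokinases add a phosphate to glucose, which traps it in the cell. Transporters of the SLC2A family (GLUT proteins) carry the sugar across the plasma membrane, GLUT1 (SLC2A1) and GLUT3 (SLC2A3) with high affinity and GLUT2 (SLC2A2) with low affinity in hepatocytes. HK2 is low in healthy hepatocytes and common in liver tumours. Phosphofructokinase commits the sugar to glycolysis. The bifunctional enzymes encoded by the PFKFB genes make and break its activator, fructose 2,6-bisphosphate, with kinase activity prevailing in PFKFB3. Pyruvate kinase and lactate dehydrogenase carry out the last steps to lactate. Several of these genes are textbook targets of the hypoxia-inducible factors, which bind the core letters ACGTG or GCGTG, and MYC binds CACGTG.

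The promoters of the 3 called genes with the largest changes, HK2, SLC2A1 and PFKFB4, are shown because these genes moved in opposite directions. Each window holds the 250 bases upstream of the most upstream start that RefSeq lists on GRCh38.p14, printed 5′ to 3′ on the gene's strand, and capitals mark ACGTG or GCGTG on either strand (written CACGT or CACGC where they lie on the other strand). The windows lie at chr2:74833877-74834126 on the plus strand, chr1:42958869-42959118 on the minus strand and chr3:48556804-48557053 on the minus strand.
HK2: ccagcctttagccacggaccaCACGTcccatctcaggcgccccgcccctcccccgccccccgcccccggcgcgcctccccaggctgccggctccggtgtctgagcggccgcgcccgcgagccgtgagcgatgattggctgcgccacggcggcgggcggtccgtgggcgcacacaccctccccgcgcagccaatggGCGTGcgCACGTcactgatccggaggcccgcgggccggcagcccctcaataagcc
SLC2A1: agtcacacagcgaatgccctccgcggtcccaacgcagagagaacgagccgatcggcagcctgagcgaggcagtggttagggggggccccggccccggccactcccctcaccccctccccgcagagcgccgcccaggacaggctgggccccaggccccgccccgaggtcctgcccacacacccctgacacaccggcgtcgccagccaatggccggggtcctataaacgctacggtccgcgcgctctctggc
PFKFB4: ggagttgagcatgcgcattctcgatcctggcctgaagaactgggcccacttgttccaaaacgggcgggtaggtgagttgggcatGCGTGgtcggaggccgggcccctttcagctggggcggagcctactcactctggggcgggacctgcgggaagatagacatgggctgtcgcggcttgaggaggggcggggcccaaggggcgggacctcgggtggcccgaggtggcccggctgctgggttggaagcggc
The HK2 window held 2 matches of ACGTG and 1 of GCGTG, the PFKFB4 window held 1 of GCGTG, and the SLC2A1 window held 0 of either. Of the 10 genes, 9 had a window in the RefSeq table, SLC2A3 being the exception. Among these 9, ACGTG was found for 2 (HK2 and LDHA), GCGTG for 3 (HK2, PFKFB3 and PFKFB4) and CACGTG, which contains ACGTG, for 1 (LDHA). Over 27305 genes with 1 window each, 18.6% held ACGTG, 31.9% GCGTG and 6.46% CACGTG. These counts depend on the start. Over all 21 windows of the 9 genes, ACGTG was found at some start for 4 genes, GCGTG for 6 and CACGTG for 3. The window of the second HK2 start held all 3. Of all 35116 windows, 18.5%, 32.2% and 6.34% held these letters. Those are shares of single windows and cannot be set against the gene counts, since a gene may have several starts (HK1 has 7). A match describes these letters in this window and is not a binding site.

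The mean intensity of an array lay between 739 and 1050, and 19440 to 20138 probes were detected per array. Arrays of 1 group correlated at 0.989 to 0.994 over detected probes and arrays of different groups at 0.977 to 0.986. Of 16 hepatocyte markers named on the array, all 16 were detected, among them ALB and AFP. After sorafenib 1 of them was higher and 5 were lower (1 and 8 with the replicate number as a model term), where 8.44% of all 11542 genes tested were higher and 11.6% lower. Their summed linear level was 289010 to 319189 on control and 270181 to 304457 on sorafenib arrays. Of 14 markers of fibroblasts, endothelium and leukocytes, 9 were detected on no array (COL1A1, PTPRC, CD3E and VWF among them), 2 on 1 or 2 arrays, and 3 were tested. Their summed level was 7477 to 8304 on control and 12116 to 14274 on sorafenib arrays. Most of this sum was signal of LYZ, a lysozyme gene (mean log2 12.66 on control and 13.48 on sorafenib arrays). LYZ was the called member, with a change of 0.82 ± 0.10 (adjusted p = 0.00489). CD14 (0.23 ± 0.08, adjusted p = 0.0999) and CD68 (-0.01 ± 0.12, adjusted p = 0.957) were not called.

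Of the 16 detected probes, 3 were higher after sorafenib (HK2, SLC2A1 and PKM) and 1 was lower (PFKFB4), and 12 were not called. A probe was called at an adjusted p under 0.05 in limma's moderated test, with two-sided p-values adjusted by Benjamini-Hochberg across the 20120 detected probes, of which 16.7% were called in either direction, 7.27% higher and 9.45% lower. A fit that also holds a term for the replicate number (the block), since the arrays' deviations pair by number, called 7 member probes higher and 1 lower. It called 20.2% of all probes, 9.03% higher and 11.2% lower. The added probes were those of HK1, PFKP and the other 2 PKM probes. Sorafenib lay above control on all arrays for 8 member probes, below for 1, and the groups overlapped for 7, where 19.2% of all probes lay above and 19.8% below. The 8 include several probes of PKM and of LDHA, and probes of 1 gene are not independent, so these are not counts of genes. Compared within each replicate number, 10 of the 16 member probes were higher with sorafenib in all 3 pairs of arrays, beside a share of 29.4% of all probes. In bulk RNA, more signal per cell and more cells with the transcript cannot be told apart. The median log2 change was 0.33 over the 16 member probes and 0.01 over all detected probes. One of the 16, a dim LDHA probe, passed the filter through its sorafenib arrays, so these counts describe the probes that passed and not all 20. Each change below is sorafenib minus control in log2 normalized intensity, with its standard error. Apart from marker sums and ranking by brightness, levels of different probes are not set against each other, since probes differ in brightness.

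**Figure D1:**
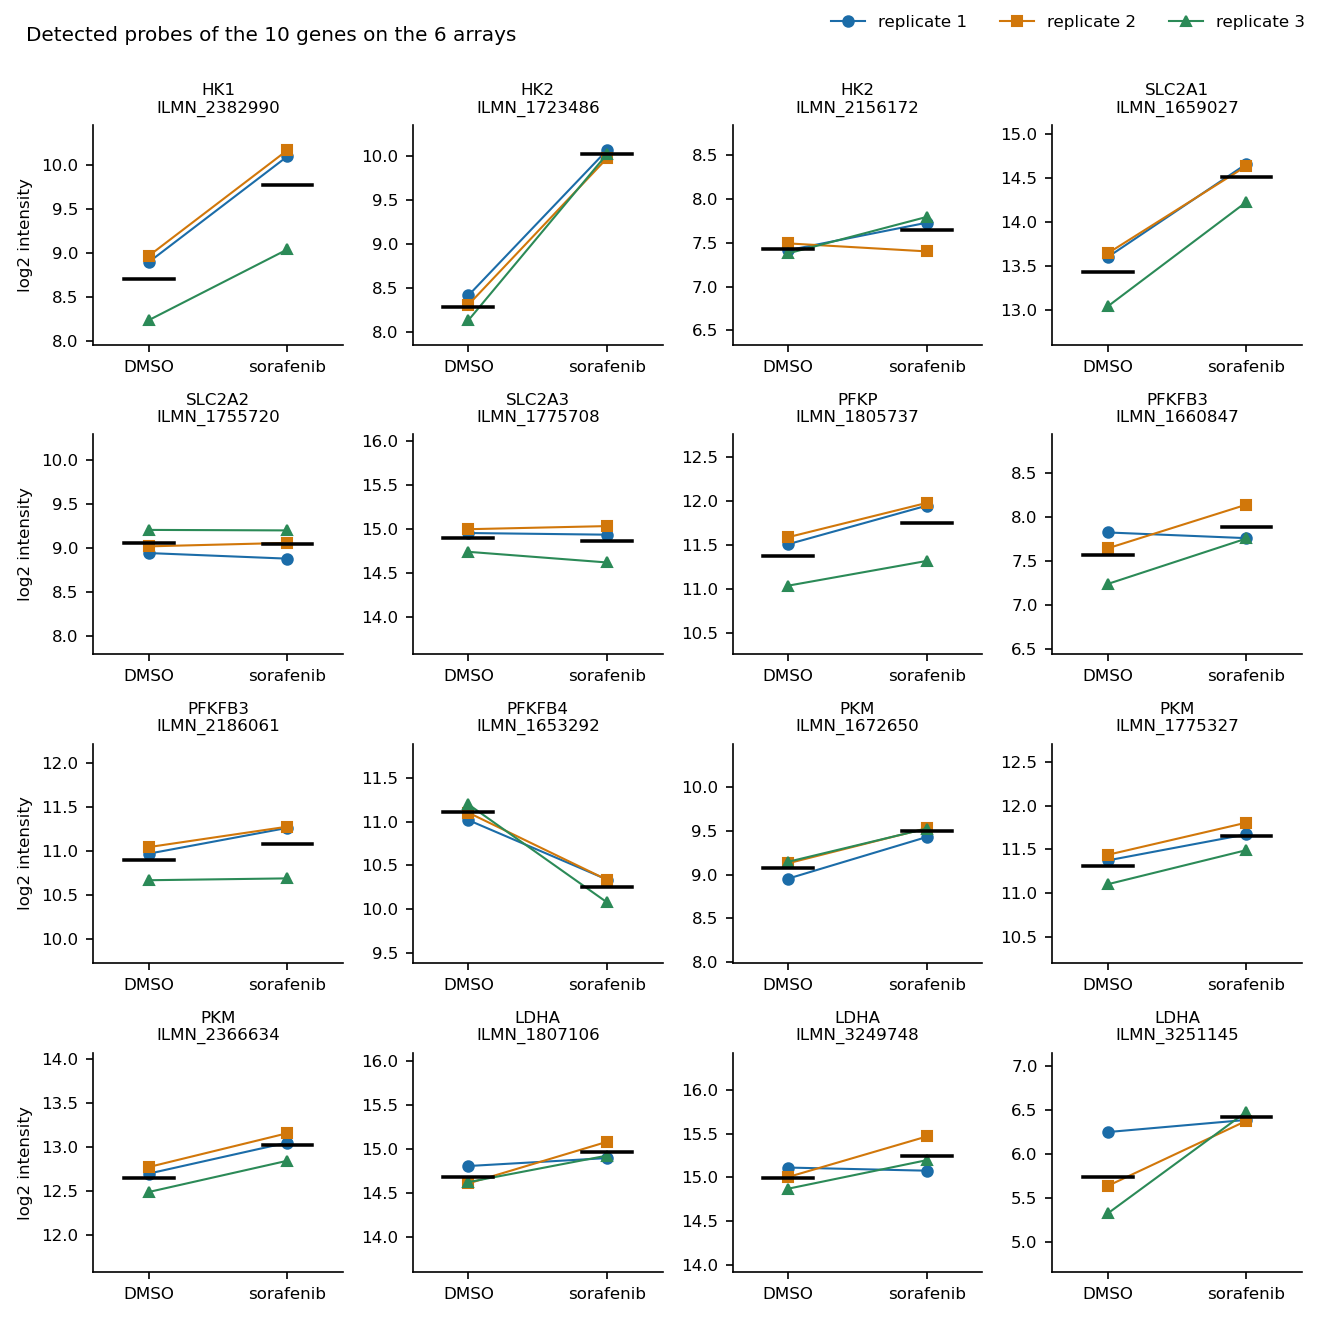
Normalized log2 intensity of the 16 detected probes on each array, DMSO on the left and sorafenib on the right of each panel, with lines joining arrays of the same replicate number and black bars at the group means. Each panel spans the same height in log2 units, HK2 ILMN_1723486 rises from 8.13 to 8.41 up to 9.97 to 10.07, and the number 3 arrays of HK1, SLC2A1 and PFKP sit below the other arrays of their group.

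HK2, a hexokinase prominent in tumours, gave the largest rise among the 16 detected member probes, on 1 of its 2 probes. On ILMN_1723486 the control arrays read 8.41, 8.31 and 8.13 and the sorafenib arrays 10.07, 9.97 and 10.02. The groups were far apart and the sorafenib arrays lay close together. As deposited, before any normalization, the same probe had intensities of 487, 437 and 313 on control and 1121, 1326 and 1016 on sorafenib arrays. The change was 1.74 ± 0.10, a 3.34-fold higher intensity (adjusted p = 0.000418), the 38th highest change among the 20120 probes. On the second probe, ILMN_2156172, the control arrays read 7.41, 7.49 and 7.38 and the sorafenib arrays 7.73, 7.40 and 7.79. Here sorafenib array 2 lay within the control range, and the change was 0.21 ± 0.12 (adjusted p = 0.271). The platform annotation ties both probes to the same HK2 transcript record, and both were detected on all 6 arrays.

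The difference between the 2 HK2 probes was tested directly, by fitting their log2 difference on each array, so that an offset of the array cancels. ILMN_1723486 minus ILMN_2156172, a value of use only for how it changes, was 1.00, 0.81 and 0.75 on the control arrays and 2.34, 2.57 and 2.23 on the sorafenib arrays. It was larger on every sorafenib array than on any control array, by 1.53 ± 0.13 in the mean (95% interval 1.22 to 1.83). Among 4636 pairs of detected probes of 1 gene, over 2988 genes, 0.539% were called and 31 differed by 1 or more. The HK2 pair was the 6th in size and was called (adjusted p = 0.0338 over all pairs). With the replicate number as a block its adjusted p was 0.0636 and limma called 0 of the 4636 pairs, with 671 at an unadjusted p under 0.05. The call was also lost whichever single array was left out, where the difference stayed at 1.43 to 1.60 and the adjusted p ran from 0.0637 (without sorafenib 3) to 0.134 (without control 3), with 0.0877 without control 1, 0.128 without control 2, 0.0969 without sorafenib 1 and 0.0986 without sorafenib 2. A mean over both probes gave HK2 a change of 0.98 (adjusted p = 0.00124). This lay below the changes of the SLC2A1 probe (1.08) and the detected HK1 probe (1.07), so the ranking of HK2 depends on the probe.

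HK1, the widely expressed hexokinase, was detected by 1 of its 4 probes, ILMN_2382990. Control arrays read 8.90, 8.97 and 8.24, and sorafenib arrays 10.10, 10.17 and 9.04. All sorafenib arrays lay above all control arrays, and in both groups the number 3 array was the lowest by a wide margin. The change was 1.07 ± 0.34 and was not called (adjusted p = 0.0766). The spread was large, with an SD of 0.40 in control and 0.63 in sorafenib arrays. Within replicate numbers the sorafenib array was higher by 1.20, 1.20 and 0.81, and with the number as a block the rise was called (adjusted p = 0.00925). Without sorafenib 3 the change was 1.44 and was called (adjusted p = 0.0191), and without both number 3 arrays it was 1.20 (adjusted p = 0.0131). Leaving out any other single array gave 0.84 (control 3) to 1.21 (control 2) with no call (adjusted p = 0.118 to 0.198). The other 3 HK1 probes and 1 PFKP probe were detected on no array. Their log2 values lay between 4.57 and 5.39 and their intensities between 84.9 and 141. One of these undetected HK1 probes, ILMN_2280871, is tied to the same transcript record as the detected probe.

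SLC2A1, the gene of the transporter GLUT1, rose. Its probe ILMN_1659027 read 13.60, 13.64 and 13.04 on control arrays and 14.66, 14.64 and 14.23 on sorafenib arrays. The groups did not overlap, and the number 3 array was again the lowest of each. The change was 1.08 ± 0.20, a 2.12-fold higher intensity (adjusted p = 0.0151). Without sorafenib 2 it was 1.02 and the call was lost (adjusted p = 0.0572). The rise within replicate numbers was 1.06, 0.99 and 1.19. The HK1 and SLC2A1 changes were thus close in size, and the HK1 arrays spread more widely.

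The other 2 transporter genes were not called. SLC2A2, the GLUT2 of hepatocytes, read 8.94, 9.02 and 9.21 on control arrays and 8.88, 9.06 and 9.20 on sorafenib arrays. The groups overlapped almost fully, with a change of -0.01 ± 0.12 (95% interval -0.29 to 0.27, adjusted p = 0.966). SLC2A3, the gene of GLUT3, read 14.95, 15.00 and 14.74 on control and 14.94, 15.03 and 14.62 on sorafenib arrays. Its change was -0.03 ± 0.13 (95% interval -0.35 to 0.28, adjusted p = 0.888). A 2-fold change, 1 on the log2 scale, lies outside both intervals. The SLC2A3 probe lies near the top of the scale, at the 99.3rd percentile of detected probes. Whether its signal still follows the amount of transcript there was not tested. SLC2A3 has a near-identical paralog, SLC2A14, and which of them this probe reads is uncertain. The SLC2A14 probe changed by -0.16 ± 0.15 (adjusted p = 0.527).

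**Figure D2:**
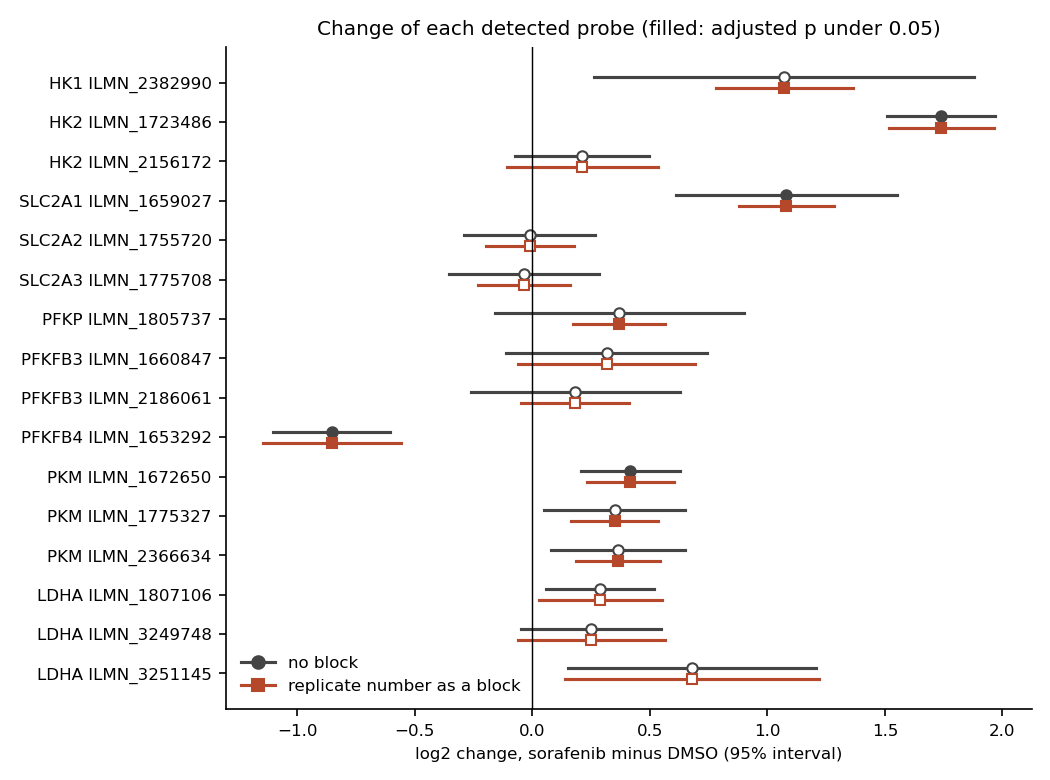
Log2 change (sorafenib minus DMSO) of each detected probe with its 95% interval, without a block (grey circles) and with replicate blocks (red squares), filled where the adjusted p over all probes was under 0.05. HK2 ILMN_1723486 and SLC2A1 lie at 1.74 and 1.08 and PFKFB4 at -0.85, and HK1, PFKP and 2 PKM probes are filled with the block alone.

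At the phosphofructokinase step, PFKFB4 fell. PFKFB4 makes and breaks the activator of phosphofructokinase, as PFKFB3 does. Its only probe, ILMN_1653292, read 11.02, 11.10 and 11.20 on control and 10.34, 10.34 and 10.08 on sorafenib arrays. Every sorafenib array lay below every control array, and the lowest was sorafenib 3. The change was -0.85 ± 0.10, a 1.81-fold lower intensity (adjusted p = 0.00456). This fall was called under all 19 alternatives, with changes from -0.90 to -0.72 and adjusted p-values from 3.76e-05 to 0.0281.

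PFKFB3 was not called by either of its probes. ILMN_2186061 read 10.97, 11.04 and 10.66 on control and 11.26, 11.27 and 10.68 on sorafenib arrays, a change of 0.18 ± 0.19 (adjusted p = 0.550). ILMN_1660847 read 7.83, 7.64 and 7.24 against 7.76, 8.14 and 7.76, a change of 0.32 ± 0.18 (adjusted p = 0.274). The groups overlapped on both. The changes of the 2 probes differed by -0.13 (brighter minus dimmer, 95% interval -0.53 to 0.27, adjusted p = 0.853). PFKP, the platelet-type phosphofructokinase, read 11.51, 11.59 and 11.04 on control and 11.95, 11.98 and 11.32 on sorafenib arrays. Its groups overlapped because sorafenib 3 lay below 2 control arrays, and the change was 0.37 ± 0.22 (adjusted p = 0.300). Within replicate numbers PFKP was higher by 0.44, 0.39 and 0.28, and with the number as a block it was called (adjusted p = 0.0343). The change was 0.20 without control 3 and 0.59 without sorafenib 3.

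PKM, the pyruvate kinase of most tissues and of tumours, was higher by 0.35 to 0.42 on all 3 of its probes, and 1 of them was called. ILMN_1672650 read 8.95, 9.13 and 9.14 on control and 9.43, 9.53 and 9.52 on sorafenib arrays, a change of 0.42 ± 0.09 (adjusted p = 0.0240). The groups were separate, and the arrays within each lay close together. Leaving out arrays ended this call in 5 of 6 cases, with adjusted p-values of 0.0665 without control 1, 0.0652 without control 2, 0.0509, 0.0847 and 0.0612 without sorafenib 1, 2 and 3, and changes of 0.36 to 0.45. With median scaling in place of quantile normalization the adjusted p was 0.122. ILMN_2366634 read 12.70, 12.77 and 12.49 against 13.05, 13.16 and 12.84, a change of 0.36 ± 0.12 (adjusted p = 0.0828, and 0.0296 with the replicate block). ILMN_1775327 read 11.38, 11.44 and 11.10 against 11.67, 11.81 and 11.49, a change of 0.35 ± 0.13 (adjusted p = 0.107, and 0.0340 with the replicate block). All 3 probes had sorafenib above control on all arrays.

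The PKM probes are tied to 3 different transcript records of the gene, which is known for the splice forms M1 and M2, but which exon each probe reads was not analysed here. Their changes differed by 0.01, -0.05 and -0.07. The 95% interval ran from -0.20 to 0.23 for ILMN_2366634 minus ILMN_1775327, from -0.40 to 0.30 for ILMN_2366634 minus ILMN_1672650 and from -0.44 to 0.30 for ILMN_1775327 minus ILMN_1672650. A difference as large as the 1.53 of the HK2 probes lies outside all 3 intervals.

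LDHA, which turns pyruvate into lactate, was not called by any of its 3 probes. ILMN_3249748 read 15.11, 15.00 and 14.87 on control and 15.08, 15.47 and 15.20 on sorafenib arrays, a change of 0.25 ± 0.13 (adjusted p = 0.220). ILMN_1807106 read 14.81, 14.61 and 14.62 against 14.90, 15.08 and 14.93, a change of 0.29 ± 0.10 (adjusted p = 0.0882), with the sorafenib arrays all above the control arrays. These levels lie near the top of the scale, at the 99.6th and 99.3rd percentile of detected probes. LDHA also has processed pseudogene copies, so what its probes read is uncertain.

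The remaining LDHA probe, ILMN_3251145, was dim and was detected on 1 of 3 control and 3 of 3 sorafenib arrays. It read 6.25, 5.63 and 5.32 against 6.38, 6.37 and 6.48, a change of 0.68 ± 0.22 (adjusted p = 0.0826). The control arrays spread over almost 1 unit while the sorafenib arrays lay together. Without control 1, the only control array that detected this probe, the change was 0.94 and was called (adjusted p = 0.0173). That call sets the sorafenib arrays, through which the probe passed the filter, against control arrays on which it was not detected. Without background correction the change was 0.26. The change of ILMN_3249748 minus that of this probe was -0.43 (95% interval -0.91 to 0.06, adjusted p = 0.489), and for ILMN_1807106 it was -0.39 (-0.85 to 0.07, adjusted p = 0.514). The 2 bright probes differed by -0.04 (95% interval -0.28 to 0.21). Within the 4 genes that had at least 2 detected probes, the median size of the difference was 0.10 over 8 pairs, against 0.13 over all 4636 pairs, and the HK2 pair was the only one of the 8 that was called.

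**Figure D3:**
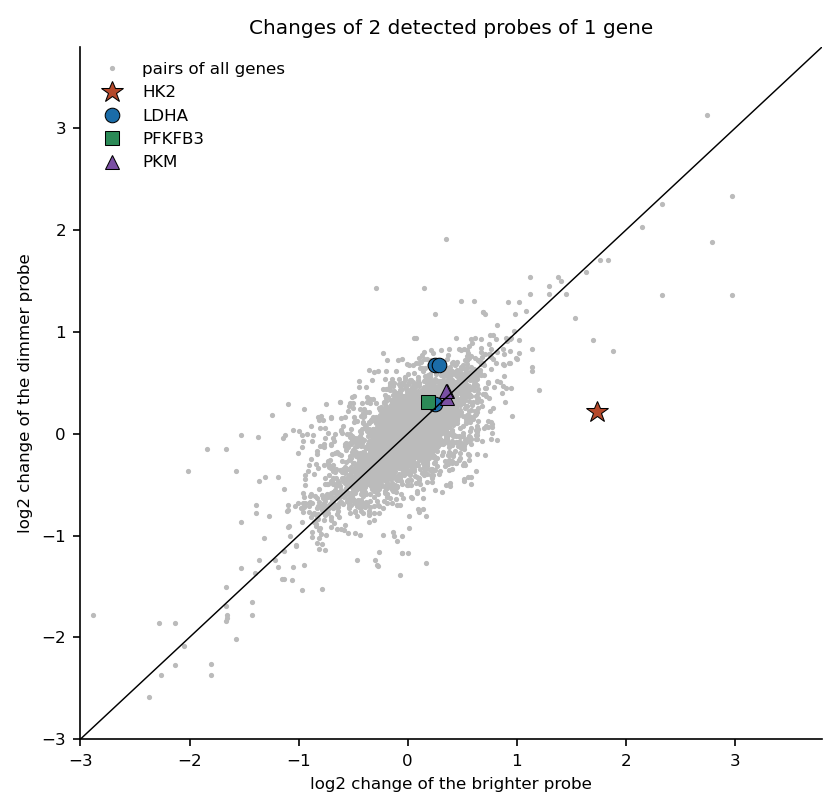
Log2 change of the brighter (horizontal) against the dimmer (vertical) of 2 detected probes of 1 gene, for all 4636 pairs (grey) and the 8 pairs of HK2, LDHA, PFKFB3 and PKM, with the line of equal change. The HK2 pair lies far right of the line, at 1.74 against 0.21, and the PKM pairs lie on it.

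The number 3 arrays stood apart for several of these genes in both groups. The number 3 array was the lowest of each group for HK1, SLC2A1, SLC2A3, PFKP, both PFKFB3 probes, PKM ILMN_1775327 and PKM ILMN_2366634. For SLC2A2 it was the highest of both. On PFKFB3 ILMN_1660847 sorafenib 3 and sorafenib 1 nearly tied, at 7.757 and 7.760. Control 3 also had the lowest mean intensity of the 6 arrays. Without both number 3 arrays, a setting added after the data were seen, 3 member probes were higher (HK1, HK2 and SLC2A1) and 1 was lower (PFKFB4).

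The genes whose values over the 6 arrays were most like those of HK2 ILMN_1723486, among 15262 detected probes of other genes, were TGFBR3, GABPB1 and PLXNA2, each with a Pearson r of 0.999. TGFBR3, a co-receptor of TGF-beta, read 11.40, 11.33 and 11.12 on control and 12.67, 12.62 and 12.62 on sorafenib arrays, a change of 1.35 ± 0.10. GABPB1, a subunit of the transcription factor GABP, changed by 0.68 ± 0.08, and PLXNA2, a semaphorin receptor, by 1.21 ± 0.09 from 1 of 3 detected control arrays. With 6 arrays in 2 groups, such an r rests mainly on the step between the groups.

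Outside the 10 genes, glucose metabolism was read from 52 tested genes of 79 listed, with 1 probe a gene, the one with the highest mean level. Of these 52, 4 were higher and 7 were lower after sorafenib, beside 8.44% and 11.6% of all genes tested. Their median change was -0.05 against 0.00 for all genes. With the replicate block 4 were higher and 9 lower, the added genes being the monocarboxylate carrier SLC16A4 (-0.71 ± 0.24, adjusted p = 0.0887, and 0.0107 with the block) and the pyruvate carboxylase gene PC (-0.36 ± 0.13, adjusted p = 0.120, and 0.0377 with the block).

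Of 16 other glycolytic enzymes, 3 were called, all of them lower, with a median change of 0.04 over the list. They were PKLR, ENO3 and ALDOC. PKLR, the pyruvate kinase of liver and red cells, read 9.01, 9.19 and 9.62 on control and 7.86, 7.96 and 8.71 on sorafenib arrays. The groups were separate, and the change was -1.10 ± 0.26 (adjusted p = 0.0331). The PKLR call was lost without control 1, 2 or 3 (adjusted p = 0.0567, 0.0833 and 0.0931) and without sorafenib 1 or 2 (0.0894 and 0.103), at changes of -1.23 to -0.92. A second PKLR probe changed by -0.74 (adjusted p = 0.0210), and another, detected on 1 of 3 control arrays, by 0.29 (adjusted p = 0.187).

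The muscle-type enolase ENO3 read 11.30, 11.38 and 11.51 on control and 10.58, 10.57 and 10.68 on sorafenib arrays, a change of -0.78 ± 0.09 (adjusted p = 0.00365), and its second probe changed by -0.75. The aldolase ALDOC changed by -0.76 ± 0.12 (adjusted p = 0.00924). GAPDH, often used as a reference, changed by -0.02 ± 0.08 (adjusted p = 0.894), and its sign turned with median scaling (0.01). The hexokinase domain gene HKDC1 changed by 0.26 ± 0.11 (adjusted p = 0.163), ENO1 by 0.26 ± 0.09 (adjusted p = 0.0925) and PFKM by 0.57 ± 0.28 (adjusted p = 0.213). PFKL, the phosphofructokinase of liver, changed by 0.03 ± 0.11.

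Of 10 other sugar, pyruvate and lactate carriers, 1 was higher and 2 were lower, with a median change of -0.09. The mitochondrial pyruvate carrier is built from MPC1 and MPC2, and the probes of its subunits moved in opposite directions. MPC1 read 12.77, 12.69 and 12.93 on control and 13.31, 13.37 and 13.73 on sorafenib arrays, a change of 0.67 ± 0.13 (adjusted p = 0.0194), and a second probe changed by 0.84. MPC2 read 12.42, 12.43 and 12.72 against 11.65, 11.71 and 12.01, a change of -0.74 ± 0.13 (adjusted p = 0.0149). Both groups were separate for each gene. The MPC1 call was lost without control 1 (adjusted p = 0.0608), control 2 (0.0694) or sorafenib 2 (0.0516), and the MPC2 call without sorafenib 2 (0.0578). SLC2A6, a sugar transporter of lysosomes, changed by -0.68 ± 0.11 (adjusted p = 0.0119).

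Of 7 tested genes of the pyruvate dehydrogenase complex and its kinases, limma called 0, with 1 at an unadjusted p under 0.05, and their changes ran from -0.20 (PDK2) to 0.35 (PDHX). The kinase genes PDK1 and PDK4 were detected on no array. Of 10 genes of glucose release and the pentose phosphate path, 2 were called, both lower, with a median change of -0.15 over the list. They were PCK2, the mitochondrial phosphoenolpyruvate carboxykinase (-0.51 ± 0.10, adjusted p = 0.0208), and PGLS, the lactonase of the pentose phosphate path (-0.37 ± 0.08, adjusted p = 0.0239). The PCK2 call was lost without control 2, control 3, sorafenib 1 or sorafenib 2 (adjusted p = 0.0719, 0.0616, 0.0614 and 0.0700), and the PGLS call without control 1, control 2, sorafenib 1 or sorafenib 2 (adjusted p = 0.0730, 0.0813, 0.0737 and 0.0773).

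Of 9 other regulators of glycolysis, 3 were called, all of them higher, with a median change of -0.07 over the list. TXNIP, an arrestin-like protein known to lower glucose uptake through GLUT1, read 7.81, 7.93 and 8.59 on control and 9.00, 8.85 and 9.51 on sorafenib arrays. All sorafenib arrays lay above all control arrays, and the change was 1.01 ± 0.25 (adjusted p = 0.0380). The TXNIP call was lost without control 1 (adjusted p = 0.105), control 2 (0.112), sorafenib 1 (0.0780), sorafenib 2 (0.0650) or sorafenib 3 (0.0797). The transcription factor gene MYC changed by 0.64 ± 0.10 (adjusted p = 0.00825) and by 0.72 on its second probe.

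MLX, the partner of the glucose-sensing factor MLXIPL, changed by 0.36 ± 0.09 (adjusted p = 0.0358), and its call was lost when any array other than control 2 was left out (adjusted p = 0.0812 to 0.101). MLXIPL itself changed by -0.18 ± 0.24 (adjusted p = 0.642) and HIF1A, a subunit of the hypoxia-inducible factor, by 0.12 ± 0.10 (adjusted p = 0.478). PFKFB2, a further gene of the PFKFB family, changed by -0.33 ± 0.09 (adjusted p = 0.0565). SLC16A3 was not analysed here.

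**Figure D4:**
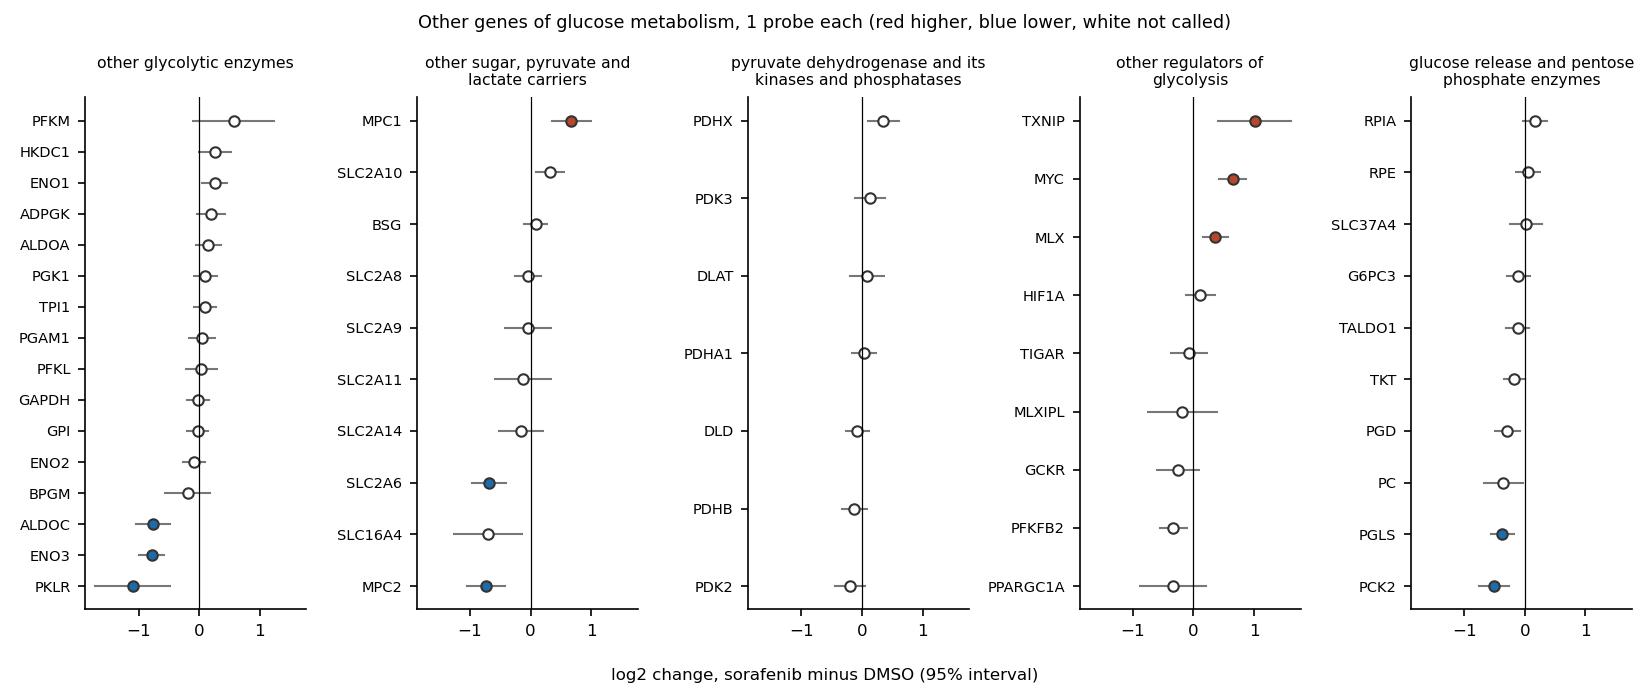
Log2 change (sorafenib minus DMSO) with its 95% interval of the 52 other tested genes of glucose metabolism, 1 probe a gene, in 5 lists, with red for higher, blue for lower and white for not called. PKLR, ENO3 and ALDOC lie lowest among the enzymes (-1.10, -0.78 and -0.76), and MPC1 and MPC2 lie on opposite sides of 0 (0.67 and -0.74).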

How the data were processed

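Biotinylated cRNA from HepG2 cells was hybridized to Illumina BeadChips, per the labels' protocols. The authors deposited unnormalized probe intensities, each beside its detection p-value, per the file headers. Their deposited processed values, on a log2 scale, matched quantile-normalized log2 intensities within 5e-07, with a median of 7.09, and served as an alternative. No source used here names the scanner software. Cell lines other than HepG2 were not analysed here.

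Background was corrected with limma's normexp model of neqc, using an offset of 16, the negative controls being inferred from detection p-values, before quantile normalization and log2. Symbols came from the platform annotation (30113 probes with 1 symbol, 8 with several, 17202 with none), and 30074 named probes matched RefSeq by gene number, which altered 0 symbols. Probes and pairs of probes were fitted with lmFit and eBayes, with Benjamini-Hochberg adjustment over all probes or all pairs. These fits were first run on simulated data with independent noise. The simulated arrays had no pairing by number, so that run does not cover paired arrays. The number of arrays limits the precision, and p-values measure the spread between arrays. Deviations from group means correlated at 0.273, 0.237 and 0.315 between arrays of equal replicate number and at -0.289 to 0.029 otherwise. The pairing comes from the data alone, and deviations cancel within a group, so these values are not independent. As each correlation of equal numbers was over 0.1, a fit with the number as a block was added as an alternative. The main fit, its standard errors and its calls ignore this pairing. Blocked values stand beside results whose call they change.

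All member probes are accounted for, with values on every array for detected ones. Of each other list, called genes with the 3 largest changes and the largest opposite one are named, as are GAPDH, PDK1, PDK4, TXNIP and SLC16A3. Some items of this rule are not reported here. The 3 genes nearest to the called member probe with the largest change were taken by Pearson's r. HKDC1, ENO1, PFKM, PFKL, SLC2A14, SLC16A4, PC, PDK2, PDHX, PFKFB2, MLXIPL, HIF1A, LYZ and the markers were named after their values were seen. Members and lists were chosen with earlier results of these data known. Alternatives changed the background correction, normalization, source of values, filter, unit of the test, variance model, array weights, pairing and arrays used. R 4.3.3, limma 3.58.1, statmod 1.5.0, Python 3.11.15 and matplotlib 3.10.9 were used.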

Additional observations from a re-analysis of the deposited data

How the results depend on the processing

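The count of 3 higher member probes became 7 without background correction, with the authors' deposited processed values and with the replicate block. It became 6 with a normexp offset of 50, with trended robust variances and with array weights, and 4 with stricter detection. It ran from 1 to 3 when 1 array was left out, the 1 without sorafenib replicate 2. An equal count can hold other probes. Without control 1 LDHA ILMN_3251145 was called (adjusted p = 0.0173) and PKM ILMN_1672650 was not (0.0665). With median scaling the count stayed at 3, with HK1 called (0.0338) and PKM ILMN_1672650 not called (0.122). The count of 1 lower member probe held in all 19 alternatives. The 1 called pair of probes, of HK2, became 0 with the replicate block, 0 whichever single array was left out and 0 without both number 3 arrays. The 4 higher other genes became 7 without background correction, with the authors' values and with trended robust variances. They became 6 with an offset of 50, with stricter detection and with array weights, 3 with median scaling and 2 with no filter. When 1 array was left out they were 1 to 3 (1 without control 1 or sorafenib 2). The 7 lower ones became 9 without background correction, with an offset of 50, with the authors' values and with stricter detection. They were also 9 with 1 probe a gene and with the replicate block. They became 10 with trended robust variances, 8 with array weights, 6 with no filter and 5 with median scaling. They were 4 without both number 3 arrays, and 3 to 7 when 1 array was left out (3 without sorafenib 2). Beyond the calls printed in the text, the replicate block changed no other call of a named probe, and the causes of these shifts were not tested.

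Changes near 0 turned sign. The LDHA pair ILMN_1807106 and ILMN_3251145 gave 0.027 without background correction and 0.0051 with the authors' values, and the PKM pair ILMN_2366634 and ILMN_1672650 gave 0.0086 and 0.0033. GAPDH gave 0.011 with median scaling, and SLC2A2 and SLC2A3 gave 0.015 and 0.0080 with array weights. Without both number 3 arrays SLC2A3 gave 0.0082 and the PFKFB3 pair 0.047. With 1 array left out, SLC2A2 ran from -0.087 to 0.074, SLC2A3 from -0.12 to 0.087, GAPDH from -0.050 to 0.0055, the LDHA pair ILMN_3249748 and ILMN_1807106 from -0.091 to 0.011, and the PKM pairs of ILMN_1672650 from -0.17 to 0.050 with ILMN_2366634 and from -0.20 to 0.031 with ILMN_1775327. HK1 was called in 9 of 19 alternatives, HK2 ILMN_1723486 in all 19, SLC2A1 in 18 and LDHA ILMN_1807106 in 5 of 17. For HK2 the 19 include the mean over both of its probes, with a change of 0.98.

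The cells were 1 line at 1 dose and 1 time. Signal over background limits the dim probe LDHA ILMN_3251145, which gave 0.26 to 0.94 over its alternatives. Without both number 3 arrays the calls of ALDOC, SLC2A6, MLX, PCK2 and PGLS were lost (adjusted p = 0.0572, 0.0525, 0.147, 0.0700 and 0.0650). Median scaling ended those of PGLS, PCK2 and MLX (0.260, 0.0878 and 0.198), and dropping the filter, which tests more probes, those of PKLR, TXNIP and MLX (0.0566, 0.0652 and 0.0665).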
